A study of Mus musculus with 6 samples.

Results

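The GIMAP genes (GTPases of immunity-associated proteins) encode small GTP-binding proteins of lymphocytes. All 8 mouse members with a row in the deposited tables are described here: Gimap1, Gimap3, Gimap4, Gimap5, Gimap6, Gimap7, Gimap8 and Gimap9. They were taken by symbol and are 8 of the 21899 genes listed. No other listed symbol starts with Gimap, and all 8 passed the low-count filter that left 12768 genes for testing.

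The study sequenced bulk mRNA from regulatory T cells (Tregs) induced in culture from mouse splenic CD4+ T cells. The WT group came from iWT mice and the KO group from Dlst-Treg iKO mice, with 3 samples in each group. Dlst encodes dihydrolipoamide S-succinyltransferase, a subunit of the 2-oxoglutarate dehydrogenase complex of the tricarboxylic acid cycle. Cells of both groups spent 2 days under Treg-polarizing conditions with 4-hydroxytamoxifen, and were sorted as CD4+, positive for the FoxP3-GFP reporter and for tdTomato, before RNA extraction. The labels name neither the Cre driver of the deletion nor the mice behind each sample, so a p-value here is set against sample-to-sample spread that may be partly technical.

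GIMAP proteins share an AIG1-type GTPase domain related to that of the septins, and many are anchored to intracellular membranes by a C-terminal hydrophobic segment. They are expressed mainly in lymphocytes and are best known for keeping resting T cells alive: mice or rats that lack functional GIMAP5 lose most of their peripheral T cells. Several members have been linked to lysosomes, autophagy or the control of apoptosis by BCL2-family proteins.

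Dlst, the targeted gene, stood at 161, 149 and 149 CPM (reads of a gene relative to the TMM-scaled library total) in the WT samples and at 125, 129 and 129 CPM in the KO samples, in the order of their replicate numbers. Its log2 fold change, given throughout as KO minus WT, was -0.26 (SE 0.05), with no overlap between groups and an adjusted p of 0.0894 in edgeR's quasi-likelihood test. It passed the threshold of 0.05 in only 2 of 16 alternative settings. These were DESeq2 (adjusted p = 0.00129) and edgeR with WT replicate 1 and KO replicate 1 both left out (adjusted p = 0.0324). They called 532 and 538 of all genes, against 86 in the main test. The largest edgeR adjusted p of Dlst was 0.28, without KO replicate 3. Which Dlst exons were deleted is not stated, so reads from undeleted exons may enter these values. KO replicate 1 stood apart from the other 5 libraries: it alone held more than traces of the Y-linked mRNAs Ddx3y (80.8 CPM against at most 0.03) and Eif2s3y (82.4 CPM against 0). T cell markers summed to 5725 to 6297 CPM in WT and 5497 to 6073 CPM in KO, led by Il2ra, Lck and Lat, with none of 12 at 0 in any sample. Monocyte and macrophage markers, led by Lyz2, summed to 21.7 to 32.9 CPM in WT, and to 379, 101 and 112 CPM in KO replicates 1, 2 and 3. Of the 9 tested there, 1 (Mrc1, adjusted p = 0.0449 in edgeR) passed. Neutrophil markers, led by S100a9, summed to 4.95 to 33.0 CPM in WT and to 309, 77.4 and 75.7 CPM in the same KO replicates, and 0 of 9 tested passed. No marker of these lists was at 0 in all 6 samples. Of the B cell markers 0 of 10 passed, of the CD8 and NK cell markers 0 of 8, and of the dendritic cell markers 1 of 7 (Itgax). Of the erythroid and the endothelial markers 0 of 3 each passed, and of all tested genes 0.674%. B cell markers summed to 319, 173 and 124 CPM in WT replicates 1 to 3, and to 206, 169 and 176 CPM in KO replicates 1 to 3. Dendritic cell markers summed to 113, 47 and 29 CPM in WT and to 66, 49 and 51 CPM in KO, in the same order. Both sums were highest in WT replicate 1. The monocyte, macrophage and neutrophil sums thus lay above the WT range in all 3 KO samples, and farthest in KO replicate 1. In bulk RNA, fewer T cells and less GIMAP mRNA per T cell cannot be told apart, and the part of the other cells in the GIMAP values was not tested.

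The 8 genes lie in 1 cluster of 123.6 kb on chromosome 6 (chr6:48647234-48770851, GRCm38, GENCODE M21), 6 on the plus strand and 2, Gimap6 and Gimap3, on the minus strand. In order along the chromosome they are Gimap8 (48647234 to 48660875), Gimap9 (48676129 to 48679114), Gimap4 (48684549 to 48692060), Gimap6 (48701582 to 48708225), Gimap7 (48718621 to 48724636), Gimap1 (48739054 to 48743795), Gimap5 (48746197 to 48754210) and Gimap3 (48764464 to 48770851). All 8 are annotated as protein coding.

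Gimap4 and Gimap5 followed each other most closely over the 6 samples, and Gimap3 was the steadiest member, so the promoters of these 3 genes are shown. The windows are the 250 bases before the transcription start in RefSeq on GRCm38.p6, read 5′ to 3′ on the strand of the gene, and capitals mark matches to the motifs named after them. The GENCODE start of Gimap4 lies inside its window, close to the 3′ end.
Gimap4 upstream window, chr6:48684328-48684577, plus strand: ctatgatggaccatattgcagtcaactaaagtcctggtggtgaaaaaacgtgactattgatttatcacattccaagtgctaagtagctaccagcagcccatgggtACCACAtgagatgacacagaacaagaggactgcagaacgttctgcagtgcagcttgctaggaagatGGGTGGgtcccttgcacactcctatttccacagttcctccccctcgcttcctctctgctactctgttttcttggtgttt
Gimap5 upstream window, chr6:48745947-48746196, plus strand: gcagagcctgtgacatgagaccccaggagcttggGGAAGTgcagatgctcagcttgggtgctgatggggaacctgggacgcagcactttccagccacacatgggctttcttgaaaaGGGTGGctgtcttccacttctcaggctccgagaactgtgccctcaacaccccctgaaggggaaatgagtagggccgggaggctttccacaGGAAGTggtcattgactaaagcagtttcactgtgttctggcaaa
Gimap3 upstream window, chr6:48770852-48771101, minus strand: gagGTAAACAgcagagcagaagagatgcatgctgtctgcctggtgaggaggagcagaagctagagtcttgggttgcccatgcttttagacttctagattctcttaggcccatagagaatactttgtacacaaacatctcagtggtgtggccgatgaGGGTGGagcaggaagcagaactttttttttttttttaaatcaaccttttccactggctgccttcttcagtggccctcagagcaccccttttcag
Both strands were searched for TGTGGT (bound by RUNX factors), GGAAGT (ETS), CCACCC (KLF), TGTTTAC (FOXO), TTCNNNGAA (STAT) and TATAAA (the TATA box). The Gimap4 window held 1 RUNX and 1 KLF match, the Gimap5 window 2 ETS and 1 KLF matches, and the Gimap3 window 1 KLF and 1 FOXO match, with no overlap between matches. Of the 6 motifs only the KLF one was common to these 3 windows, and 28.1% of the 32536 RefSeq promoter windows of the same length hold it. Over the 9 windows of the 8 members (Gimap8 has 2), the KLF motif was in 5, RUNX in 3, ETS in 2, STAT in 2, FOXO in 1 and TATA in 1. The shares of all promoter windows were 14% for RUNX, 19.8% for ETS, 7.04% for STAT, 3.17% for FOXO and 12.3% for TATA. A match is a description of the letters and not a bound site.

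The family spanned a wide range of mRNA levels in these induced Tregs. Levels between genes are compared in TPM, a unit that corrects for gene length and library total. In WT the order was Gimap3 (243 ± 11.3 TPM, SD, n = 3), Gimap4 (240 ± 16.7), Gimap6 (180 ± 16.2), Gimap9 (143 ± 6.82), Gimap1 (127 ± 9.49), Gimap8 (77.0 ± 4.01), Gimap5 (40.0 ± 2.02) and Gimap7 (7.28 ± 1.08). Gimap3 overlapped Gimap4 over the WT samples, and Gimap9 overlapped Gimap1, whereas the other neighbours in the order did not overlap. Only 4.29% of the tested genes had a WT level above that of Gimap3, while 31.6% lay above Gimap5 and 68.1% above Gimap7.

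The order in KO was the same, from Gimap3 (246 ± 11.4 TPM, SD, n = 3) and Gimap4 (206 ± 38.3) through Gimap6 (170 ± 8.55), Gimap9 (137 ± 9.46), Gimap1 (110 ± 8.57), Gimap8 (76.4 ± 3.82) and Gimap5 (33.4 ± 6.73) to Gimap7 (6.14 ± 0.912). Here only Gimap4 and Gimap6 overlapped among neighbours in the order. The 8 members together made up 1057 ± 44.8 TPM in WT and 985 ± 87.5 TPM in KO (SD, n = 3). By sample the summed level was 1070, 1094 and 1007 TPM in WT replicates 1 to 3 and 885, 1046 and 1025 TPM in KO replicates 1 to 3. KO replicate 1 was the lowest, and the other 2 KO samples lay within the WT range.

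**Figure D1:**
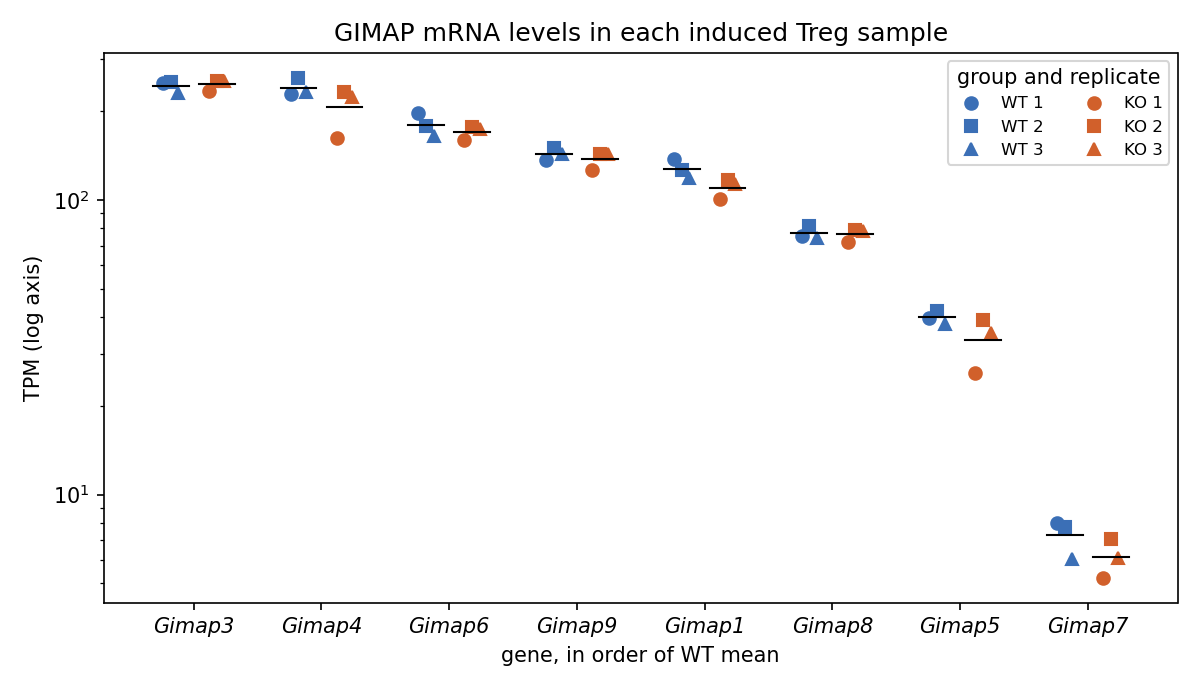
TPM of each GIMAP gene (log axis) in the 3 WT samples (blue) and 3 KO samples (orange), with replicates 1, 2 and 3 as circles, squares and triangles and group means as black lines. Genes are ordered by WT mean, from Gimap3 at 243 TPM to Gimap7 at 7.28 TPM, and the KO circle lies below the other KO points for every gene.

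No GIMAP gene passed the threshold between KO and WT. Of the 8 members 0 were called at an adjusted p under 0.05, beside 86 of all 12768 tested genes (0.674%), 58 of them higher in KO (0.454%) and 28 lower (0.219%). At an unadjusted p under 0.05 there was 1 member, Gimap1, beside 15.1% of all tested genes, and DESeq2 and limma also called 0. The groups overlapped for all 8 members, whereas 22.8% of all tested genes had no overlap, 10.9% with KO lower and 11.9% with KO higher. Fold changes were below 0 for 7 members and above 0 for Gimap3, with Gimap8 at 0 to 2 decimals. Their median was -0.13 on the log2 scale against -0.0029 over all tested genes, of which 50.9% were below 0.

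Gimap5, the member known for T cell survival, stood at 44.3, 48.0 and 42.3 CPM in the WT samples (replicates 1, 2 and 3) and at 29.1, 43.9 and 39.8 CPM in the KO samples in the same order. KO replicate 1 was far below all other samples, and KO replicate 2 lay inside the WT range. It averaged 44.9 ± 2.87 CPM over the WT samples and 37.6 ± 7.66 CPM over the KO samples (SD, n = 3). This is a log2 fold change of -0.26 (SE 0.14), whose 95% interval runs from -0.60 to 0.08, at an edgeR adjusted p of 0.448. Without KO replicate 1 it was -0.10.

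Gimap3 is the closest relative of Gimap5, and in sequence the pair stands out in the family. Their coding sequences, of 903 and 924 bases, were 87.9% identical over 902 aligned bases, the highest of the 28 member pairs. Pairs with Gimap8 reached at most 66.1%, where its coding length of 2064 bases leaves a gapped alignment more room for matches, and the closest other pair was Gimap7 and Gimap9 at 64.9%. The least alike pair was Gimap1 and Gimap6 at 46.8%. The longest identical coding stretch of Gimap3 and Gimap5 was 140 bases within 1 exon of each gene, and is shown because reads inside it fit both genes equally well. It covers coding positions 175 to 314 of Gimap3 (chr6:48765681-48765820, minus strand) and 187 to 326 of Gimap5 (chr6:48752684-48752823, plus strand), in GRCm38.
Gimap3 and Gimap5 shared coding stretch: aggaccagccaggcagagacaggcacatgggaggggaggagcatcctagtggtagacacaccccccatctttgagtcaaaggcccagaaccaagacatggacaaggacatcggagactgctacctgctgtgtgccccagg
Of the 2527 different 51-base words in Gimap3 transcripts, 183 (7.24%) also occur in Gimap5 transcripts, where they make up 4.36%. How the authors' counting assigned such reads is not given in the sources used here, so the values of both genes are uncertain to that extent.

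Gimap3 stood at 300, 309 and 276 CPM in the WT samples (replicates 1, 2 and 3) and at 282, 309 and 308 CPM in the KO samples in the same order. The groups covered almost the same range, and the lowest sample was WT replicate 3. It averaged 295 ± 16.7 CPM over the WT samples and 299 ± 15.5 CPM over the KO samples (SD, n = 3), with a log2 fold change of 0.02 (SE 0.06, 95% interval -0.13 to 0.17, edgeR adjusted p = 0.902). This was the smallest standard error of the 8 members.

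Gimap1, which mature B and T lymphocytes need to persist, stood at 105, 101 and 92.1 CPM in the WT samples (replicates 1, 2 and 3) and at 79.1, 92.3 and 88.9 CPM in the KO samples in the same order. The groups met only at their edges, with KO replicate 2 just above WT replicate 3. It averaged 99.5 ± 6.80 CPM over the WT samples and 86.8 ± 6.86 CPM over the KO samples (SD, n = 3). The log2 fold change was -0.20 (SE 0.08, 95% interval -0.38 to -0.02), and the unadjusted p of 0.0330 became 0.290 after edgeR's adjustment over all tested genes. In the reference, the antisense RNA Gimap1os shares 32.4% of the 51-base words of Gimap1 on either strand. Whether the counting used strand is not given in the sources used here. How reads from that shared part were assigned is therefore uncertain. A read-through gene of the cluster, Gm28053, holds 4.75% of the words of Gimap1, 2.48% of those of Gimap5 and 1.34% of those of Gimap7. It was measured at 3.80, 3.58 and 3.31 CPM in WT and 3.73, 3.20 and 3.09 CPM in KO, with a log2 fold change of -0.09 (SE 0.15, edgeR adjusted p = 0.816).

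Gimap4, which has been linked to the death of T cells after an apoptotic stimulus, stood at 224, 261 and 228 CPM in the WT samples (replicates 1, 2 and 3) and at 159, 233 and 223 CPM in the KO samples in the same order. Again 1 sample, KO replicate 1, lay far below the rest, and the other 2 KO samples lay within or next to the WT range. It averaged 238 ± 20.4 CPM over the WT samples and 205 ± 40.1 CPM over the KO samples (SD, n = 3), so the KO spread was larger than the difference. The log2 fold change was -0.21 (SE 0.14, 95% interval -0.55 to 0.13, edgeR adjusted p = 0.530), and -0.06 without KO replicate 1. None of its 51-base words occurs in another member, and its deposited counts were whole numbers in all 6 libraries.

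Gimap6, a partner of the ATG8 protein GABARAPL2 in autophagy, stood at 185, 171 and 156 CPM in the WT samples (replicates 1, 2 and 3) and at 154, 169 and 168 CPM in the KO samples in the same order. It averaged 171 ± 14.4 CPM over the WT samples and 164 ± 8.56 CPM over the KO samples (SD, n = 3), with a log2 fold change of -0.06 (SE 0.07, 95% interval -0.23 to 0.11, edgeR adjusted p = 0.731). KO replicate 1 lay just below the WT range, the other 2 KO samples lay inside it, and WT replicate 1 was the highest sample. Leaving out WT replicate 3 gave -0.12, KO replicate 1 gave -0.02 and WT replicate 1 gave -0.0019.

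Gimap7, known to stimulate the GTPase activity of other GIMAP proteins by pairing with them, was the lowest member, with 5.80, 5.77 and 4.37 CPM in WT replicates 1, 2 and 3, then 3.81, 5.17 and 4.48 CPM in the KO samples. These values rest on 173 to 271 reads per library, the fewest in the family. WT replicate 3 lay among the KO samples. The means were 5.32 ± 0.819 and 4.49 ± 0.677 CPM (SD, n = 3), and the log2 fold change of -0.25 had the widest interval of the 8 members, from -0.65 to 0.16 (SE 0.17, edgeR adjusted p = 0.545). Leaving out KO replicate 1 gave -0.14, and leaving out WT replicate 3 gave -0.37.

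Gimap8, whose long product carries several GTPase domains, stood at 118, 132 and 117 CPM in the WT samples (replicates 1, 2 and 3) and at 115, 127 and 126 CPM in the KO samples in the same order. It averaged 122 ± 8.46 CPM over the WT samples and 122 ± 6.65 CPM over the KO samples (SD, n = 3), and the log2 fold change was 0 to 2 decimals (SE 0.07, 95% interval -0.16 to 0.16, edgeR adjusted p = 0.999). The groups lay on top of each other. Gimap9 stood at 89.4, 100.2 and 93.1 CPM in the WT samples (replicates 1, 2 and 3) and at 82.5, 96.4 and 94.8 CPM in the KO samples in the same order. KO replicate 1 was its lowest sample and the other 2 KO samples lay inside the WT range. Its log2 fold change was -0.05 (SE 0.08, 95% interval -0.22 to 0.13, edgeR adjusted p = 0.805).

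**Figure D2:**
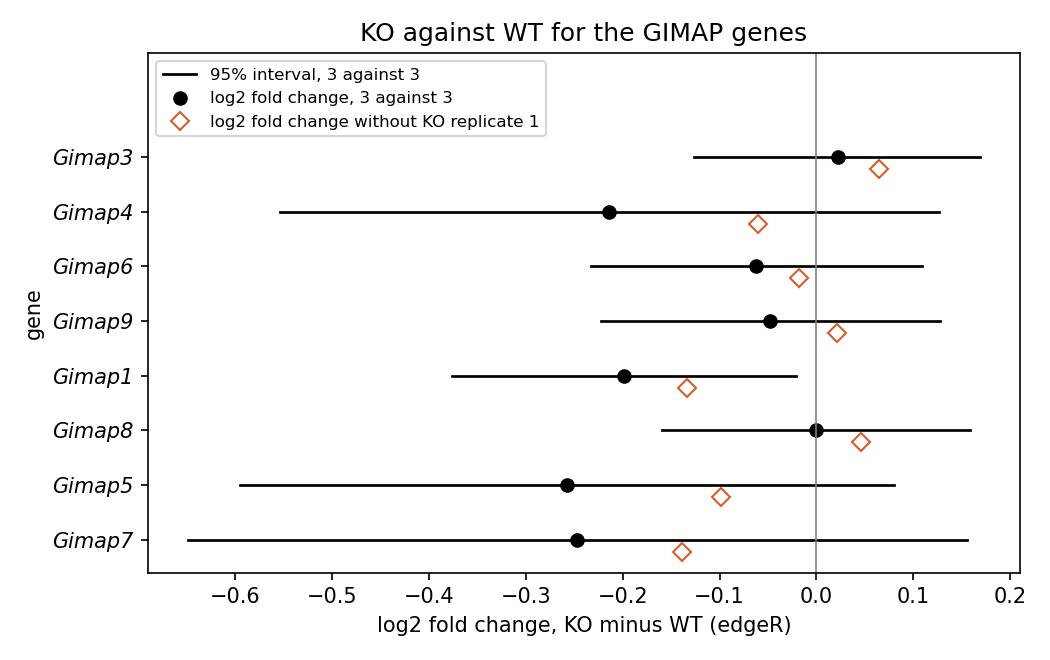
Log2 fold change of each GIMAP gene, KO minus WT, from edgeR with its 95% interval (black points and bars, 3 against 3 samples) and the fold change without KO replicate 1 (open diamonds). The interval of Gimap1, -0.38 to -0.02, leaves out 0 before adjustment for multiple testing, and all diamonds lie to the right of their points.

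The 3 KO samples were not alike. KO replicate 1 was the lowest of the 6 samples for 7 of the 8 members, all but Gimap3, beside 26.6% of all tested genes. As the difference in log2 CPM from the WT mean, KO replicate 1 measured -0.62 for Gimap5, -0.58 for Gimap4, -0.46 for Gimap7 and -0.33 for Gimap1. For Gimap9, Gimap6, Gimap8 and Gimap3 it measured -0.19, -0.15, -0.09 and -0.07. The same differences ran from -0.11 (Gimap1) to 0.07 (Gimap3) in KO replicate 2 and from -0.23 (Gimap7) to 0.06 (Gimap3) in KO replicate 3.

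Set against the mean of the other 2 KO samples, KO replicate 1 was 0.52 log2 units lower for both Gimap4 and Gimap5, and only 3.15% and 3.10% of all tested genes had a lower value of this difference. For Gimap7 the share was 6.41%, for Gimap9 12.6% and for Gimap1 14%, while Gimap8, Gimap6 and Gimap3 were nearer the middle at 21.7%, 22.7% and 22.8%. The median of this difference was -0.20 over the members and 0.005 over all tested genes. The mean of KO replicates 2 and 3 minus WT had a median of -0.04 over the members, against -0.003 over all tested genes. The median log2 fold change of the members was -0.04 without KO replicate 1 and -0.13 with it. KO replicate 1 also had the highest myeloid marker sums and the Y-linked mRNAs given above, and their part in its GIMAP levels was not tested.

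**Figure D3:**
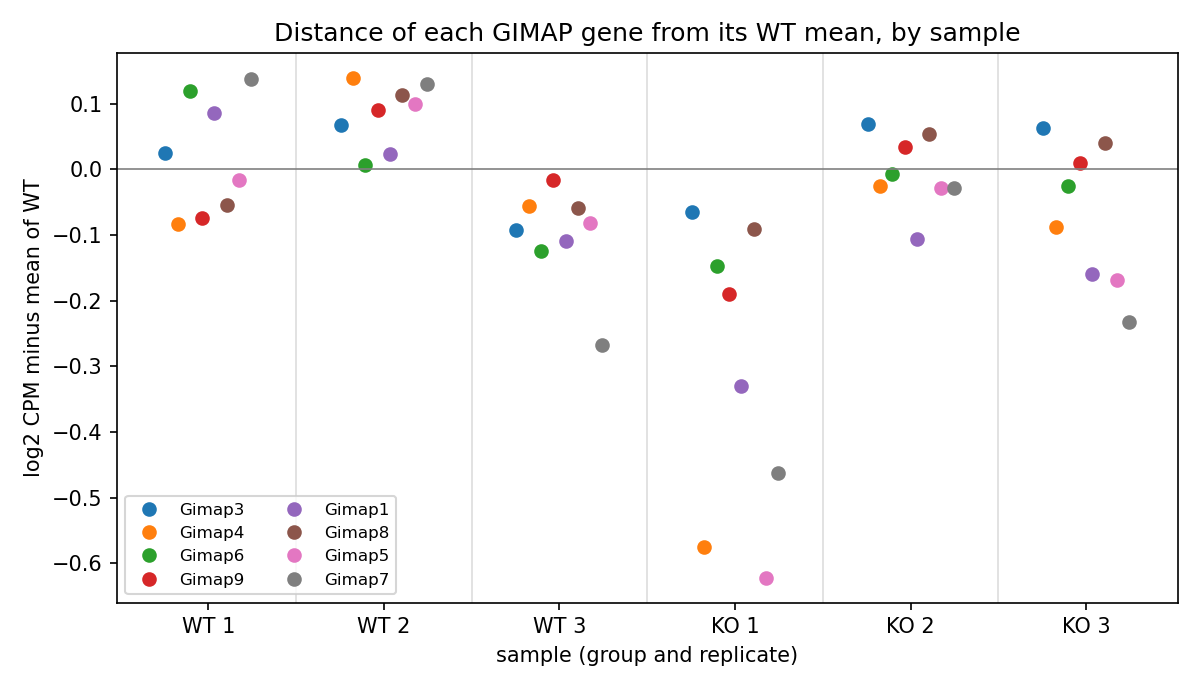
Log2 CPM of each GIMAP gene minus its WT mean, in each of the 6 samples (columns), with 1 colour per gene. Gimap4 and Gimap5 lie at -0.58 and -0.62 in KO replicate 1, while in KO replicates 2 and 3 every member lies between -0.23 and 0.07.

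The make-up of the family's mRNA pool also differed between samples. Gimap5 relative to Gimap3, as a difference of log2 TPM, measured -2.64, -2.57 and -2.59 in WT replicates 1 to 3 and -3.17, -2.70 and -2.84 in KO replicates 1 to 3. All 3 KO samples lay below all 3 WT samples in the Gimap5 to Gimap3 ratio. Of all tested genes, 22.8% had no overlap between groups in their own CPM, but this is a share of single genes and not of ratios. No such share was computed for ratios of other gene pairs. Reads that fit both Gimap3 and Gimap5 leave this ratio uncertain. Gimap4 relative to Gimap3 measured -0.12, 0.05 and 0.02 in WT and -0.53, -0.13 and -0.18 in KO, where the groups parted by less than 0.01. Gimap4 relative to Gimap5 stayed between 2.52 and 2.66 in all 6 samples. Gimap4 relative to Gimap9 measured 0.74, 0.79 and 0.70 in WT and 0.36, 0.70 and 0.65 in KO, where the groups met at 0.70. These ratios were chosen after the values had been seen and carry no test. As a share of the family's TPM, Gimap3 took 22.8 to 23.2% in WT and 24.2 to 26.3% in KO, Gimap4 21.3 to 23.7% and 18.3 to 22.2%, and Gimap5 3.72 to 3.85% and 2.93 to 3.73%.

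Over the 6 samples the Pearson correlation of log2 CPM between members ran from 0.36 (Gimap6 with Gimap8) to 0.98 (Gimap4 with Gimap5), with a median of 0.69 over the 28 pairs. All pairs share the same 6 libraries, of which KO replicate 1 is the farthest out, so these values are a description only. The SD of log2 CPM over the 6 samples was 0.25 for Gimap5, 0.24 for Gimap4 and Gimap7 and 0.15 for Gimap1, and 0.07 to 0.10 for the other 4. The median SD was 0.12 for the members and 0.13 over all tested genes, or 0.09 over those averaging 4 or more.

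Outside the family, the 5 genes whose log2 CPM followed the family's mean most closely over the 6 samples were sought among the 7802 genes averaging 4 or more in log2 CPM. They were Cd53 (a leukocyte tetraspanin), Eef1g (a translation elongation factor subunit), Malt1 (a protease of antigen receptor signalling), Nabp1 (a single-stranded DNA-binding protein) and Ercc1 (a DNA repair nuclease subunit), with Pearson correlations of 0.998, 0.997, 0.995, 0.992 and 0.992. A correlation of at least 0.95 was reached by 58 genes. In TPM the likeness did not hold for Ercc1, at 51.9, 52.9 and 44.0 in WT and 49.3, 45.7 and 49.1 in KO. Its lowest sample in TPM was WT replicate 3, whereas the other named genes were lowest in KO replicate 1. The log2 fold changes of the 5 named genes were -0.25, -0.06, -0.18, -0.13 and -0.08 in the same order, and edgeR's adjusted p was between 0.504 and 0.637. With KO replicate 1 left out, the fold changes were -0.09, -0.02, -0.06, -0.03 and -0.04. Cd53 had 284, 302 and 243 CPM in WT and 180, 272 and 247 CPM in KO, again lowest in KO replicate 1.

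The genes beside the cluster were not called either. Of 15 symbols listed as neighbours 9 were tested and 0 passed, beside 0.674% of all tested genes. Actr3b (log2 fold change -0.05, SE 0.22) was on the list but lies on another chromosome in GENCODE. Nearest upstream, Zfp775, a zinc-finger gene at -45.2 kb from the start of Gimap8, measured 0.01 (SE 0.10), and Repin1 measured 0.04 (SE 0.12). Lrrc61, a leucine-rich repeat gene, had the largest value at 0.32 (SE 0.09, edgeR adjusted p = 0.176), with 22.4 to 26.9 CPM in WT and 29.5 to 33.8 CPM in KO. Zfp467 measured -0.25 (SE 0.25). On the far side, the membrane protein genes Tmem176b and Tmem176a measured -0.16 (SE 0.27) and -0.12 (SE 0.23), and the more distant Tra2a and Ccdc126 measured 0.06 (SE 0.08) and 0.04 (SE 0.15). Single libraries moved some of these values: with KO replicate 1 left out, Zfp467 was -0.47 and Tra2a 0.14, with KO replicate 3 left out Zfp467 was -0.10, and with KO replicate 2 left out Tra2a was 0.01.

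**Figure D4:**
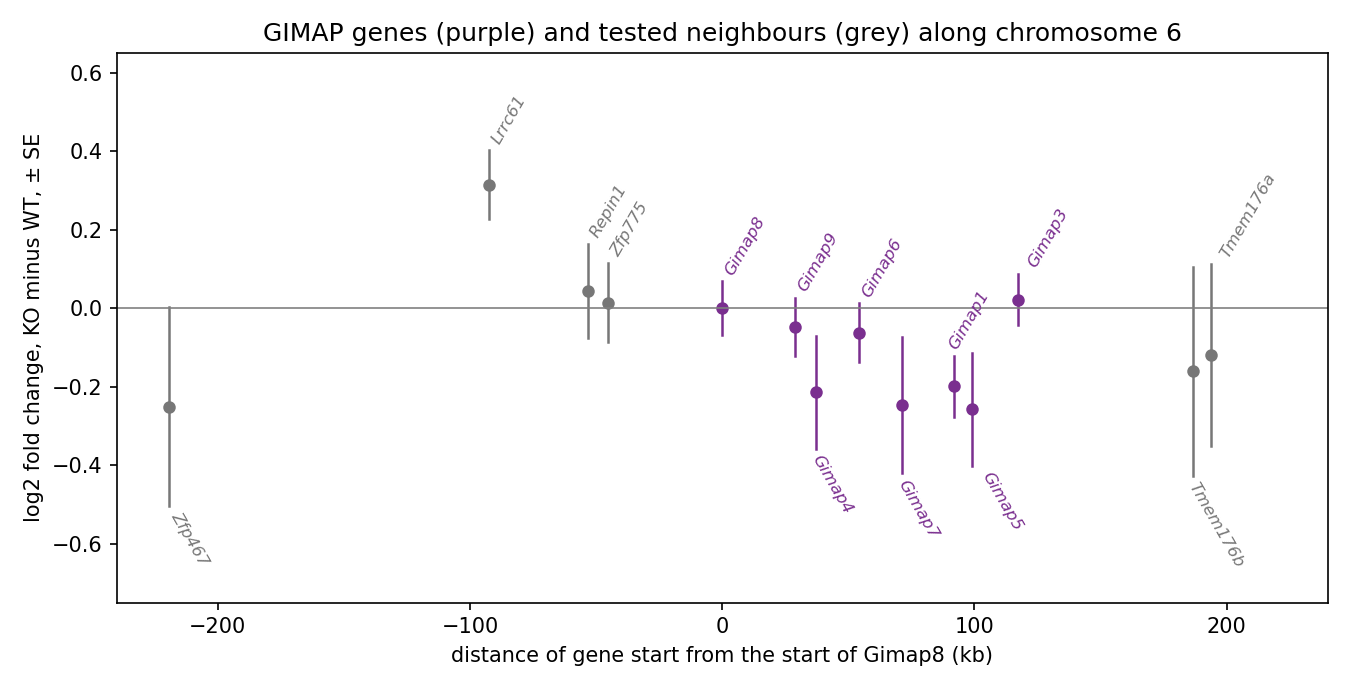
Log2 fold change, KO minus WT, with SE (bars) of the 8 GIMAP genes (purple) and of tested neighbours (grey). The horizontal axis is the distance of each gene's lower coordinate from that of Gimap8 in kb. The neighbours drawn are Zfp467, Lrrc61, Repin1, Zfp775, Tmem176b and Tmem176a. GIMAP values run from -0.26 (Gimap5) to 0.02 (Gimap3), and Lrrc61 lies highest at 0.32.

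Genes that act with GIMAP proteins were read from lists of known partners. Of 16 genes of the ATG8 and autophagy list 0 passed, with a median log2 fold change of 0.03. The 2 smallest p-values there belonged to Gabarapl1 (-0.22, SE 0.12, edgeR adjusted p = 0.416) and Map1lc3a (0.20, SE 0.13, adjusted p = 0.510), both ATG8 proteins of the autophagosome membrane. Gabarapl1 was -0.34 without WT replicate 1 and -0.14 without WT replicate 2. It passed in 1 of 16 alternative settings, with WT replicate 1 and KO replicate 1 both left out (adjusted p = 0.0269). Map1lc3a was 0.10 without WT replicate 1 and 0.33 without WT replicate 2. Of 20 genes of the GSK3, FOXO and lysosome list linked to GIMAP5, 0 passed, beside the same share of all tested genes. Tfeb, the transcription factor of lysosome genes, measured 0.44 (SE 0.12, adjusted p = 0.166). It passed in 1 of 16 alternative settings, DESeq2 (adjusted p = 0.0411). Lamtor2, a lysosomal scaffold subunit, measured 0.13 (SE 0.06, adjusted p = 0.402).

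In the BCL2 family 1 of 14 tested genes passed, beside 0.674% of all tested genes, and it was higher in KO. Bcl2, which keeps lymphocytes from apoptosis, stood at 283, 280 and 283 CPM in the WT samples (replicates 1, 2 and 3) and at 366, 346 and 358 CPM in the KO samples in the same order. All KO samples lay above all WT samples, and the log2 fold change was 0.34 (SE 0.05, edgeR adjusted p = 0.0289). The call was lost in 7 of 16 alternative settings. The edgeR adjusted p was 0.0501, 0.120 and 0.122 without WT replicates 1, 2 and 3, and 0.0740 and 0.152 without KO replicates 2 and 3. With KO replicates 2 and 3 summed as 1 library it was 0.105, and limma on log2(TPM + 1) gave 0.0519. The list's median was -0.12.

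Resting T cells hold GIMAP mRNAs together with a set of survival and recirculation genes, and most of these had values above 0. Of the 18 genes listed 0 passed, beside 0.674% of all tested genes, and 14 were above 0. The median log2 fold change was 0.23, against -0.0029 over all tested genes, of which 50.9% were below 0. Klf2 and Klf3, zinc-finger factors of T cell quiescence and trafficking, measured 1.03 (SE 0.24, edgeR adjusted p = 0.146) and 0.61 (SE 0.13, adjusted p = 0.111). DESeq2, which called 532 of all tested genes, put both past the threshold (adjusted p = 0.0204 and 0.000547). It was the only 1 of 16 alternative settings to do so for either gene. The edgeR adjusted p reached 0.321 for Klf2 and 0.2905 for Klf3 without WT replicate 2. Without KO replicate 1, Klf2 was 0.79 and Klf3 0.51. With WT replicate 1 and KO replicate 1 both left out, they were 0.67 and 0.42. Among 17 transcription factors considered for GIMAP genes 0 passed and the median was 0.07. Ikzf3, an Ikaros-family factor, measured 0.41 (SE 0.07, adjusted p = 0.0572), and Ets1 0.24 (SE 0.07, adjusted p = 0.186). Ikzf3 passed in 5 of 16 alternative settings, with an adjusted p of 3.41e-05 in DESeq2, 0.0292 with no low-count filter, 0.0440 with the replicate block, 0.0431 without KO replicate 1 and 0.00521 with both first replicates left out. Ets1 passed in 1 of 16, DESeq2 (adjusted p = 0.0462).

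Other GTPase families held no called gene, where 0.674% of all tested genes were called. Of 18 interferon-inducible GTPases of the IRG and GBP families 0 passed, 13 were below 0 and the median was -0.03. Gbp2 measured -0.45 (SE 0.16, edgeR adjusted p = 0.267), and Iigp1 measured -0.41 (SE 0.14, adjusted p = 0.251). In 1 of 16 alternative settings, without WT replicate 2, Gbp2 passed (adjusted p = 0.0470). Of 10 septins, whose GTPase domain resembles that of the GIMAPs, 0 passed, with a median of -0.04. Septin6 measured -0.14 (SE 0.07, adjusted p = 0.388) and Septin8 -0.30 (SE 0.15, adjusted p = 0.398). Septin8 was -0.11 without WT replicate 1, Septin6 -0.08 without KO replicate 1 and Iigp1 -0.23 without WT replicate 3.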

How the data were processed

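RNA from 6 samples of sorted induced Tregs, 3 WT and 3 KO, was sequenced. The submitters' processing notes name FastQC and HISAT2, a read aligner, without versions; for the counting program, genome build and annotation, the name is not given in the sources used here. The authors deposited a table of estimated counts, which need not be whole, and a table of TPM per sample, per the file headers, with 23.5 to 25.2% of genes at non-whole counts. Among the members, Gimap1, Gimap3, Gimap5 and Gimap6 had non-whole counts. Library totals ran from 33590510 to 49772670, and this number of reads and of samples limits the precision.

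Counts were rounded, filtered with filterByExpr (12768 of 21899 genes kept), scaled by TMM (factors 0.988 to 1.011) and tested KO against WT with edgeR 4.0.16 (R 4.3.3; robust quasi-likelihood F test, two-sided, with genotype alone in the model). Benjamini-Hochberg adjustment ran over all tested genes, at a threshold of 0.05. TPM was used for levels between genes and, as log2(TPM + 1) or log2(TPM + 0.1) in limma 3.58.1, as an alternative, beside DESeq2 1.42.0, other scalings and filters, a replicate block, and libraries left out. The edgeR, DESeq2 and limma steps were tested on simulated data. KO replicates 2 and 3 were the closest pair but differed by 2.09 times the sampling noise, and were kept as 2 samples.

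Positions came from GENCODE M21 (GRCm38) by identifier, which matched all 8 members, and promoters from RefSeq (GRCm38.p6). Coding identity was taken from global alignments of 1 longest coding transcript per gene, and shared words of 51 bases were sought over all annotated transcripts. The members and lists were chosen with earlier results of these data known. Named were all members, Dlst, tested neighbours, up to 4 called genes per list or the 2 with the smallest p, up to 3 leading markers per cell type, and the 5 genes most like the family; Gm28053, Mrc1, Ddx3y and Eif2s3y were chosen after their values were seen. Symbols without a row numbered 14.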

Additional observations from a re-analysis of the deposited data

How the results depend on the processing

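The intervals given for each member rest on 3 samples per group. Over 16 alternative settings 0 of the 8 members were called in any, and of 128 member values 116 kept their sign, 12 reversed and 0 passed the threshold. The median log2 fold change of the members was between -0.158 and -0.124 in the settings that kept all libraries, -0.046 with WT replicate 1 and KO replicate 1 both left out, and between -0.184 and -0.039 when each library was left out in turn, closest to 0 without KO replicate 1. Gimap1, Gimap4, Gimap5 and Gimap7 stayed below 0 in all 16 settings.

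The number of all genes called, 86, was 133 with no low-count filter, 56 with a stricter filter (at least 1 CPM in every sample), 532 with DESeq2, 39 with limma on log2(TPM + 1), 538 with WT replicate 1 and KO replicate 1 both left out, and 8 with KO replicates 2 and 3 summed as 1 library, a setting added after seeing the data. Leaving out each library in turn gave 4 (without KO replicate 3) to 93 (without WT replicate 1), with 27 and 16 without WT replicates 2 and 3, and 10 without KO replicate 2. With the replicate block it was 177. The labels state no pairing of the samples. Deviations of same-numbered samples correlated at 0.18, 0.08 and 0.08, too few values to tell whether the replicate numbers pair them. The members' median with the block was -0.13.

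Some values near 0 or with a wide spread changed sign. Gimap8 was 0.00091 with no filter, 0.006 with the stricter filter, 0.0011 with the block and 0.018 when both first replicates were left out. Gimap3 was -0.00064 with KO replicates 2 and 3 summed, and Gimap6 was 0.042 with both first replicates left out. Zfp775 was -0.09 and -0.105 with limma at pseudocounts of 1 and 0.1. With both first replicates left out, Zfp775 was -0.076, Ccdc126 -0.028, and Tmem176b and Tmem176a both 0.133. Leaving out each library in turn gave ranges that crossed 0 for Gimap3 (-0.024 to 0.065), Gimap8 (-0.031 to 0.06) and Gimap9 (-0.089 to 0.021, and 2.3e-05 without WT replicate 2). The same held for Tmem176b (-0.345 to 0.177), Tmem176a (-0.261 to 0.041), Repin1 (-0.016 to 0.151), Ccdc126 (-0.022 to 0.146), Actr3b (-0.254 to 0.178) and Zfp775 (-0.043 to 0.071). The cause of these changes was not tested.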
